A study of Homo sapiens with 6 samples.

Results

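YAP1 and WWTR1 (TAZ), the TEAD transcription factors they bind, and 4 genes that respond to them were followed by name in LoVo cells, an established human colorectal adenocarcinoma line, exposed to DCC-2036. The set held YAP1, WWTR1, TEAD1, TEAD2, TEAD3, TEAD4, CYR61, CTGF, AMOTL2 and AJUBA, which are 10 of the 19223 gene symbols listed, and all 10 were among the 12725 symbols tested. RNA was sequenced from 3 cultures labelled Control, at a dose of 0, and 3 treated with DCC-2036 (rebastinib), an inhibitor of tyrosine kinases, at 2.5 μM. The sample labels give 48 h for both groups, while a legend in the paper gives a shorter exposure at the same dose. The question was how RNA of the pathway differed between treated and Control cells of this single line. The labels do not say that the replicates were grown and treated independently, so p-values measure the spread between these samples, which may be technical.

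The Hippo pathway is a kinase cascade in which the MST kinases activate the LATS kinases, and these phosphorylate YAP and TAZ and hold them in the cytoplasm. Unphosphorylated YAP and TAZ enter the nucleus and act through TEAD proteins, which bind DNA, to switch on genes such as CYR61 and CTGF. In the intestine the pathway is known for its part in regeneration and in tumor growth, and much of its control lies in the location and phosphorylation of proteins, which RNA does not measure.

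The values are a normalized signal per transcript, adjusted by the authors before deposit, and a gene is given by the transcript whose mean across the 6 libraries was highest. They are not scaled by transcript length, so levels are not compared between genes. Column totals were 38997229, 39956227 and 40587145 in Control replicates 1 to 3 and 43279603, 45957597 and 48023306 in DCC-2036 replicates 1 to 3. These totals are not read depths, which remain unknown. The lowest values also differed in form between the groups. No Control value lay above 0 and under 0.5, whereas 2061, 2354 and 2277 transcripts did so in DCC-2036 replicates 1 to 3, and the DCC-2036 libraries were at 0 for the same 5697 transcripts. In DCC-2036 replicate 1, for example, 938 such transcripts with a summed signal under 1.3 in the other DCC-2036 libraries all read 0.00326, at mean Control signals from 0 to 13.7, so low values depended on the other libraries of the group. How far this adjustment shaped the spread within groups was not tested. All 10 genes lay far above this range in every library.

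The DCC-2036 libraries differed more among themselves than the Control libraries did. The median SD of log2(signal + 1) over the tested genes was 0.228 in DCC-2036 and 0.101 in Control, and the DCC-2036 SD was the larger in 77.3% of genes. Within that group, replicate 2 lay between replicates 1 and 3 for 67.6% of genes, against 41.1% for Control replicate 2, the Control library that most often took the middle place. DCC-2036 replicates 1 and 3 therefore sat at opposite ends for most genes, and results of the 10 genes that rest on either are given with and without it.

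Markers of colon epithelium were checked against the label. EPCAM, which encodes an epithelial adhesion molecule, lay between 4524 and 5961 in the 6 libraries, and the keratin genes KRT8, KRT18, KRT19 and KRT20 were tested too. CDX2, an intestinal transcription factor gene, lay between 213 and 365. Of the 11 markers 8 were tested, while VIL1 and LGALS4 stayed under 10 everywhere and CDX1 was listed at 0 in all 6 libraries, so these 3 defining markers were absent or nearly so. The summed signal of the epithelial list was 106250, 110010 and 116900 in Control, against 149720, 165000 and 190200 in DCC-2036, with the largest signal from KRT8. Of the 8 tested, 2, CDH1 and KRT8, were called higher (25%, against 19.2% of all genes) and 1, KRT20, lower (12.5%, against 22.7%).

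COL1A1 (353 to 520) and CD68 (205 to 280) were present in every library, and the other markers of fibroblasts, endothelium and leukocytes reached at most 51.5, in COL3A1. Of 8 fibroblast markers 2 were tested and neither was called. Their summed signal was between 370 and 445 in Control and between 454 and 553 in DCC-2036, mostly from COL1A1, and any part of this difference in the results was not tested. FAP, LUM and PDGFRA were under 10 in every library. Of 5 endothelial markers only VWF was tested, without a call, and the list summed to between 10.5 and 42.3. Of 6 leukocyte markers only CD68 was tested, without a call, and PTPRC and MS4A1 were listed at 0 throughout. That list summed to between 219 and 291. In such bulk libraries, fewer cells of a type and less RNA per cell cannot be told apart.

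At an adjusted p under 0.01 (limma with Benjamini-Hochberg adjustment over all 12725 genes, two-sided), YAP1 was higher with DCC-2036, and TEAD2 and TEAD3 were lower. The remaining 7 were not called. Thus 1 of 10 was higher where 19.2% of all tested genes were, and 2 of 10 were lower where 22.7% of all genes were. In 8 of 10 the 3 DCC-2036 values and the 3 Control values did not overlap, against 71.1% of all genes. The median log2 fold change was -0.30 over the 10 genes and -0.09 over all tested genes. As a set, these counts were close to those of the whole transcriptome, and the differences lay between individual members.

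**Figure D1:**
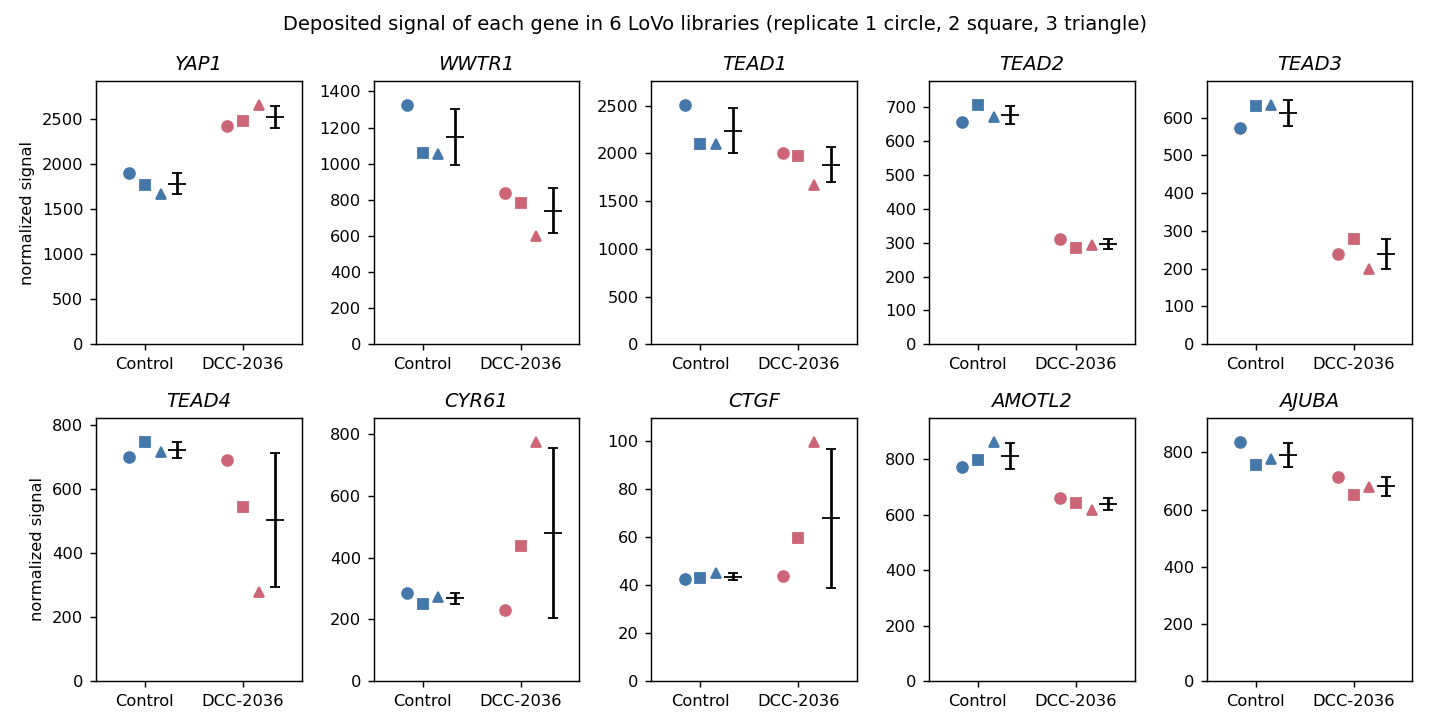
Normalized signal (vertical axis, starting at 0, separate scale per gene) of the 10 genes in 3 Control and 3 DCC-2036 libraries, with the mean and SD of each group beside the points. The groups of TEAD2 and of TEAD3 are well apart, whereas TEAD4, CYR61 and CTGF are spread widely across the DCC-2036 libraries.

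YAP1 encodes the coactivator that gives the pathway its output. Its signal was 1899.4, 1767.5 and 1668.5 in Control replicates 1 to 3 and 2419.4, 2471.9 and 2650.1 in DCC-2036 replicates 1 to 3. Every treated library was above every Control library. The treated mean was 141% of the Control mean, with a log2 fold change of 0.50 (SE 0.102, 95% interval 0.25 to 0.75, n = 3 per group) and an adjusted p of 0.00631 by limma. All 9 YAP1 transcripts in the table were called higher when every transcript was tested separately, with log2 fold changes between 0.45 and 0.51. These transcripts can share reads and are not independent.

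The YAP1 difference was modest in size and its call was the least stable of the 3. When each column was scaled to the same total, YAP1 had a log2 fold change of 0.30 and an adjusted p of 0.0401 by limma, and the median over all genes moved from -0.09 to -0.29. Under that scaling 32.7% of the genes called were higher, against 45.8% with the values as deposited. The call was also lost without Control replicate 1 (adjusted p 0.0165), Control replicate 2 (0.0308), Control replicate 3 (0.0308) or DCC-2036 replicate 2 (0.0260), each a limma fit on fewer libraries, and with low genes kept in the test (0.0147). Over all 15 alternatives the log2 fold change stayed between 0.30 and 0.58 and the adjusted p between 0.00152 and 0.0401.

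WWTR1 encodes TAZ, the paralog of YAP. Signals were 1325, 1057 and 1056 in Control, against 835, 782 and 598 in DCC-2036. All 3 treated values lay below all 3 Control values, the opposite order to YAP1. The log2 fold change was -0.64 (SE 0.169, 95% interval -1.05 to -0.23), and the adjusted p of 0.0165 by limma missed the limit. It passed only with a mean-variance trend in limma (adjusted p 0.00606), within a range over the alternatives of 0.00606 to 0.0562. The 3 WWTR1 transcripts had log2 fold changes between -0.64 and -0.61, each without overlap between groups and none called.

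The ratio of YAP1 to WWTR1 signal, which cancels any scaling of a whole library, gives the size of the shift between the paralogs. It was 1.43, 1.67 and 1.58 in Control, against 2.90, 3.16 and 4.43 in DCC-2036. Every treated library was above every Control library, and the mean ratio was 2.20-fold higher on the log scale, a log2 difference of 1.14. The separation of the groups follows from the values of both genes given above, so no test is given for it. Because the signal is not scaled by length, the ratio describes a shift and not the proportion of YAP to TAZ transcripts.

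The TEAD genes encode the DNA-binding partners of YAP and TAZ, and the 4 paralogs did not move alike. TEAD2 signal was 655, 707 and 671 in Control, against 312, 284 and 293 in DCC-2036. The groups were far apart and each was narrow. Treated cells held 43.7% of the Control mean, with a log2 fold change of -1.19 (SE 0.0967, 95% interval -1.42 to -0.96) and an adjusted p of 0.000326 by limma. All 6 TEAD2 transcripts were called lower, between -1.23 and -1.19 on the log2 scale. Among the 12725 tested genes, TEAD2 held rank 1789 from the lowest log2 fold change.

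TEAD3 was the lowest of the 10 in relative terms. Its signal was 572, 631 and 633 in Control, against 239, 278 and 200 in DCC-2036. Again no treated library came near the Control range. The treated mean was 39.0% of Control, with a log2 fold change of -1.36 (SE 0.144, 95% interval -1.71 to -1.02) and an adjusted p of 0.000662 by limma, at rank 1357 from the lowest. TEAD2 and TEAD3 were called lower under all 15 alternatives, with log2 fold changes of -1.39 to -1.11 and -1.56 to -1.24 and adjusted p of at most 0.00467 and 0.00521.

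TEAD1 was not called. Signals were 2509, 2098 and 2104 in Control, against 2001, 1975 and 1669 in DCC-2036. Treated libraries were all below the Control libraries, but by a small margin between the nearest values. The difference on the log2 scale was -0.25 (SE 0.129, 95% interval -0.56 to 0.06) with an adjusted p of 0.135 by limma. It was -0.45 with equal column totals (adjusted p 0.0427) and -0.16 without Control replicate 1 (adjusted p 0.354) or DCC-2036 replicate 3 (adjusted p 0.254), the ends of its range over the alternatives being 0.0427 and 0.354. Relative to TEAD1 in the same library, TEAD2 was 0.261, 0.337 and 0.319 in Control, against 0.156, 0.144 and 0.176 in DCC-2036. The log2 difference was -0.94. The ratio of TEAD3 to TEAD1 was 0.228, 0.300 and 0.301 in Control, against 0.119, 0.141 and 0.120 in DCC-2036. Its log2 difference was -1.12. Both ratios were lower in every treated library than in any Control library. This separation follows from the values of the genes given above, so no test is given for it.

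TEAD4 depended on which treated library was read. Signals were 702, 749 and 717 in Control, against 692, 543 and 277 in DCC-2036. Replicate 1 was just under the lowest Control value, whereas replicate 3 was far below it. The log2 fold change was -0.62 (SE 0.323, 95% interval -1.40 to 0.16) with an adjusted p of 0.139 by limma. The SD of the treated libraries on the log2 scale, 0.683, exceeded that of 93.8% of tested genes. Leaving out DCC-2036 replicate 3 gave -0.24 (adjusted p 0.155) and leaving out DCC-2036 replicate 1 gave -0.90 (adjusted p 0.0309), within a range of 0.0309 to 0.247 over the alternatives. Of 3 TEAD4 transcripts, with log2 fold changes between -0.65 and -0.62, 2 had no overlap between groups and none was called. The ratio of TEAD4 to TEAD1 overlapped between the groups (exact permutation p = 0.3). The smallest exact permutation p that 3 libraries against 3 allow is 0.1.

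**Figure D2:**
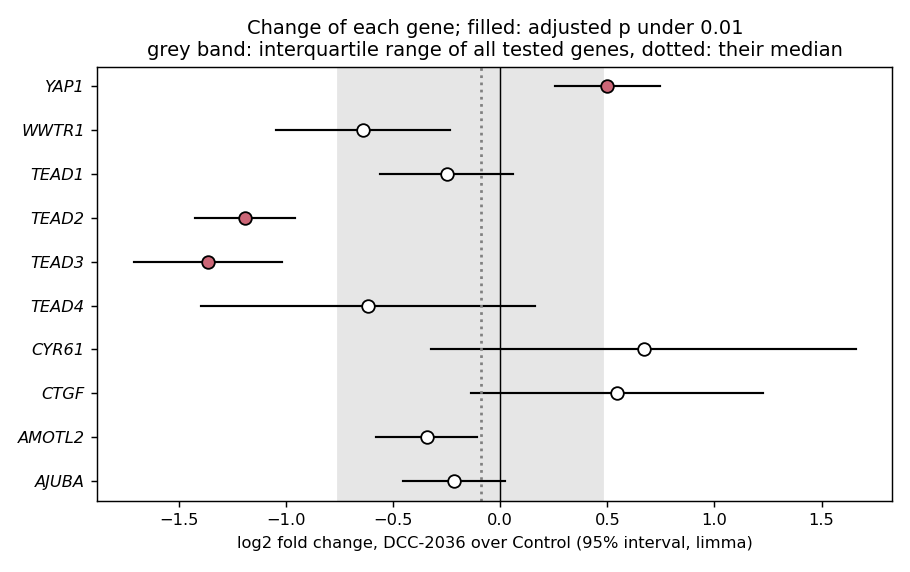
Log2 fold change of DCC-2036 over Control (horizontal axis) with its 95% interval from limma for each of the 10 genes, filled where the adjusted p was under 0.01. The grey band spans the interquartile range of all 12725 tested genes, -0.76 to 0.48, and only YAP1, TEAD2, TEAD3, CYR61 and CTGF have estimates outside it.

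CYR61 (CCN1) and CTGF (CCN2) encode secreted matricellular proteins and are the genes most often read as output of YAP and TEAD. The sequence upstream of CTGF is shown because TEAD proteins bind the letters GGAATG, and these occur there repeatedly. RefSeq promoter sequences of assembly GRCh38.p14, from 250 bases before to 50 bases after a start, were found for 7 of the 10 genes (11 promoters), and CYR61, TEAD1 and TEAD4 were not matched. GGAATG was searched on both strands, where it reads CATTCC on the other strand, and 4 of the 11 promoters held it, 1 each of YAP1, CTGF, AMOTL2 and AJUBA. Of all 35116 promoters of that length 14.0% held at least 1 match, and 0.128% held 3 or more. AMOTL2 and AJUBA each had another promoter in the table with 0 matches, and which promoter drives the transcript measured is not known here. The CTGF promoter is at chr6:131951323-131951622 on the minus strand, the matched one of AMOTL2 at chr3:134374398-134374697 on the minus strand, and the matched one of AJUBA at chr14:22976793-22977092 on the minus strand. Capitals mark the matches in the sequences, written 5′ to 3′.
CTGF: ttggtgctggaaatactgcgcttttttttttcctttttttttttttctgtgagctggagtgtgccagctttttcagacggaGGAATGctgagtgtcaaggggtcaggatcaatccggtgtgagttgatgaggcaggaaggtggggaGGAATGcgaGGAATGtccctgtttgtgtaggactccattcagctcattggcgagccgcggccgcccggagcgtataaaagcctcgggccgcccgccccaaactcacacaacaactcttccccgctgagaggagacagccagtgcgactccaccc
AMOTL2: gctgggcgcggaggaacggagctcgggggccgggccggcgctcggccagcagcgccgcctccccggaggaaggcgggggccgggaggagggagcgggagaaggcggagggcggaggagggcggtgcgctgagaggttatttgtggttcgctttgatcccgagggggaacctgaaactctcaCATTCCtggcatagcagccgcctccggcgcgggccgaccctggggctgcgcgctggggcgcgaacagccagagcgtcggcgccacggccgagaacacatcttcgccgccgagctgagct
AJUBA: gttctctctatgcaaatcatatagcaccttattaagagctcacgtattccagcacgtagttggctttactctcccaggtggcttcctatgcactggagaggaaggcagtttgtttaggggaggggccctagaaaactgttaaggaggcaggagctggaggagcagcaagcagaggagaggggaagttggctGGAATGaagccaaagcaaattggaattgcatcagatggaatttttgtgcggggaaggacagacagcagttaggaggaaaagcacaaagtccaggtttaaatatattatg
CTGF had 3 matches, 169, 104 and 95 bases before the start, while AMOTL2 had 1 at 69 bases and AJUBA 1 at 59 bases. A match describes these letters and does not show that a factor was bound.

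CYR61 signal was 284, 248 and 272 in Control, against 229, 436 and 776 in DCC-2036. The groups overlapped, since DCC-2036 replicate 1 was below all Control libraries while replicates 2 and 3 were above them. The log2 fold change of 0.67 (SE 0.412, 95% interval -0.32 to 1.66) had an adjusted p of 0.196 by limma. The highest treated library was 3.40 times the lowest, and the treated SD of 0.880 on the log2 scale exceeded that of 97.4% of tested genes. Leaving out DCC-2036 replicate 1 gave 1.12, past the limit (adjusted p 0.00925, limma), while leaving out DCC-2036 replicate 3 gave 0.24 (adjusted p 0.457), the lowest and highest p over the alternatives. A single library thus decided whether CYR61 was called.

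CTGF gave a low signal, and its treated libraries had the same order as those of CYR61. It was 42.3, 43.0 and 45.1 in Control, against 43.7, 59.7 and 99.6 in DCC-2036. DCC-2036 replicate 1 lay within the Control range, and the other treated libraries lay above it. CTGF had a log2 fold change of 0.55 (SE 0.284, 95% interval -0.14 to 1.23) with an adjusted p of 0.136 by limma. It was 0.81 without DCC-2036 replicate 1 (adjusted p 0.0189) and 0.23 without DCC-2036 replicate 3 (adjusted p 0.216), within a range of 0.0189 to 0.268. The ratio of CTGF to CYR61 was 0.149, 0.173 and 0.166 in Control, against 0.191, 0.137 and 0.128 in DCC-2036, a log2 difference of -0.12 (exact permutation p = 0.6). Both genes had the same order of treated libraries.

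The genes outside the lists whose profile over the 6 libraries was closest to these targets, among 12624 compared, were found by the root mean square difference of log2(signal + 1), centred on the Control mean. For CYR61 they were BCAM at 0.182, KLHL31 at 0.196 and PGBD4 at 0.206. For CTGF they were PGBD4 at 0.0610, DNASE1L1 at 0.0737 and PAWR at 0.0776. BCAM, a laminin receptor gene, was 615, 524 and 572 in Control, against 536, 814 and 1268 in DCC-2036. Its treated libraries had the order of those of CYR61, but replicate 1 lay within the Control range. Such likeness follows from how these genes were chosen. PAWR, an apoptosis regulator gene, was 372, 416 and 403 in Control, against 403, 557 and 809 in DCC-2036.

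AMOTL2, an angiomotin family scaffold that binds YAP and is itself induced by it, went the other way. Signals were 773, 799 and 864 in Control, against 660, 644 and 616 in DCC-2036. All treated libraries were lower and lay close together. The log2 fold change was -0.34 (SE 0.0981, 95% interval -0.58 to -0.11), and the adjusted p of 0.0222 by limma missed the limit. With columns scaled to equal totals it was -0.54 and passed (adjusted p 0.00569), within a range of 0.00569 to 0.0872. The 3 AMOTL2 transcripts lay between -0.34 and -0.33.

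AJUBA encodes a LIM domain adaptor that binds LATS kinases and restrains them. Its signal was 838, 758 and 779 in Control, against 714, 651 and 678 in DCC-2036. The groups did not overlap, though their distance was small. On the log2 scale AJUBA differed by -0.22 (SE 0.0990, 95% interval -0.45 to 0.02) with an adjusted p of 0.0988 by limma. The scaling moved this from -0.13 with median of ratios (adjusted p 0.275) to -0.41 with equal column totals (adjusted p 0.0193), the widest range over the alternatives. Of 3 AJUBA transcripts, with log2 fold changes between -0.25 and -0.10, 2 had no overlap. Over all 31 transcripts of the 10 genes, 9 were called higher and 7 lower, where 19.7% and 22.4% of all 32323 tested transcripts were.

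**Figure D3:**
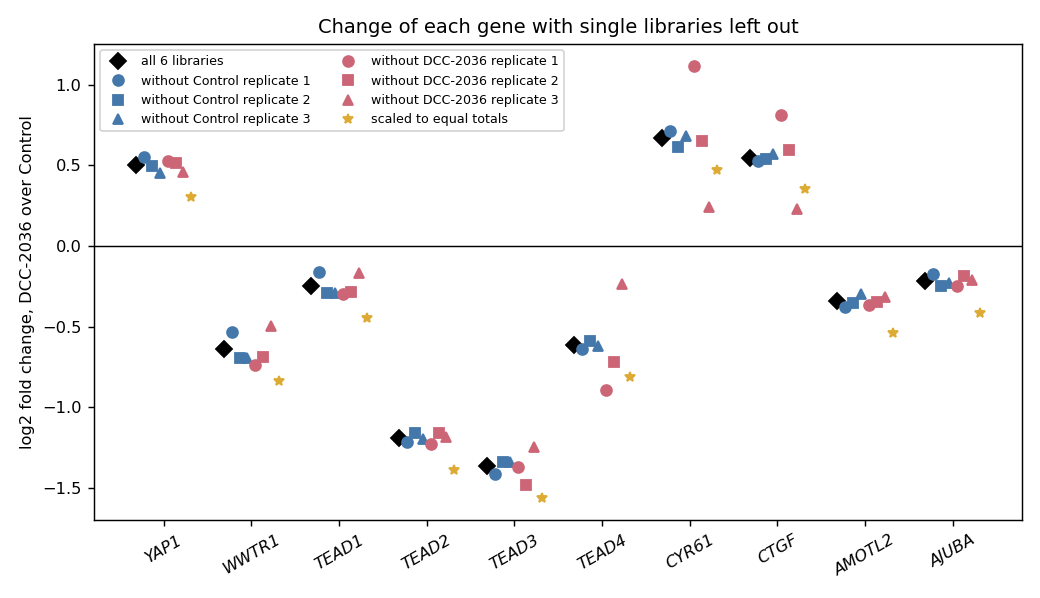
Log2 fold change of each gene (vertical axis) with all 6 libraries, with each library left out in turn, and with columns scaled to equal totals. Signs do not change for any of the 10 genes, TEAD2 and TEAD3 stay below -1.1, and CYR61 runs from 0.24 without DCC-2036 replicate 3 to 1.12 without DCC-2036 replicate 1.

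The Hippo kinases and upstream regulators that act on YAP1 were described from a list of 31 genes, all tested. Of these 10 were called higher (32.3%, against 19.2% of all genes) and 4 lower (12.9%, against 22.7%), with a median log2 fold change of 0.13 beside -0.09 for all genes. In 22 the groups did not overlap (71.0%, against 71.1% of all genes). LATS1, a kinase that phosphorylates YAP, was 761, 719 and 688 in Control, against 1047, 1206 and 1510 in DCC-2036, with a log2 fold change of 0.78 (SE 0.153, adjusted p 0.00541, limma). Its paralog LATS2 was 400, 363 and 353 in Control, against 298, 359 and 394 in DCC-2036, overlapping groups and not called. STK3, an upstream MST kinase gene, was called higher (log2 fold change 0.61), whereas its paralog STK4 (0.01) and the scaffold gene SAV1 (-0.29) were not called.

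Other called regulators included partners of these kinases and proteins of cell junctions. MOB1A and MOB1B, coactivators of LATS kinases, were higher at 0.82 and 0.94 on the log2 scale, and NF2, the merlin gene that promotes LATS activation, at 0.60. PTPN14, a phosphatase that binds YAP, was higher at 1.23, the polarity gene MPP5 at 1.23 and the protocadherin gene FAT1 at 1.09. STRN4, a subunit of a phosphatase complex that opposes the MST kinases, was higher at 0.96 and the kinase gene MAP4K4 at 0.53. Genes called lower were WTIP (-1.76), an AJUBA family gene, WWC3 (-1.41), and the polarity genes CRB3 (-1.18) and SCRIB (-1.08). The list thus held activators and inhibitors of the cascade among the higher genes. Leaving out Control replicate 1, 2 or 3 or DCC-2036 replicate 2 lowered the number called higher to 5, 5, 4 and 5, as the share of all genes called higher went to 8.41%, 7.97%, 7.89% and 7.39%.

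Among cofactors that bind TEAD proteins in place of YAP, only VGLL4 of 4 was tested. VGLL4, which competes with YAP for TEAD, was 813, 846 and 831 in Control, against 1484, 1752 and 1972 in DCC-2036. It was higher in all 3 treated libraries, with a log2 fold change of 1.05 (SE 0.129) and an adjusted p of 0.00102 by limma. VGLL1, VGLL2 and VGLL3 were under 10 in every library.

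Other reported YAP target genes were listed to set beside CYR61 and CTGF, and 21 of 28 were tested. At the limit used, limma called 0 higher, where 19.2% of all genes were, and 4 lower (19.0%, against 22.7% of all genes). At an unadjusted p under 0.05 there were 6 higher and 6 lower of 21, where 30.5% and 36.1% of all genes were. With a mean-variance trend limma called 3 higher, where it called 22.6% of all genes. The median log2 fold change was -0.0001 beside -0.09 for all genes, and 12 had no overlap (57.1%, against 71.1%). The share called lower was thus close to that of all genes. Genes called lower were TGFB1I1 (-1.71), ARHGEF17 (-1.23), the tissue factor gene F3 (-1.03) and the receptor kinase gene AXL (-0.87). MYOF, which encodes the membrane protein myoferlin, was 9143, 8217 and 8639 in Control, against 7502, 7260 and 8608 in DCC-2036, with overlap. Leaving out Control replicate 1, 2 or 3 or DCC-2036 replicate 2 lowered the 4 called lower to 2, as the share of all genes called lower went to between 12.1% and 13.6%, and leaving out DCC-2036 replicate 3 raised them to 6, with 25.9% of all genes. The number called higher became 3 without DCC-2036 replicate 1, where 21.3% of all genes were, and 2 without DCC-2036 replicate 3, where 19.8% were.

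Of the 21 tested, 12 had the order of treated libraries seen in CYR61 and CTGF, lowest in replicate 1 and highest in replicate 3 (57.1%, against 33.5% of all tested genes). In all, 16 had their highest treated value in DCC-2036 replicate 3, against 42.2% of all tested genes. GADD45A, a stress response gene, was 593, 497 and 531 in Control, against 753, 934 and 1616 in DCC-2036, without overlap and not called (log2 fold change 0.95, adjusted p 0.0239, limma). UGCG, which encodes ceramide glucosyltransferase, narrowly missed the limit at 1.03 (adjusted p 0.0103, limma). ANKRD1, often read as a YAP target, was under 10 in every library. What set DCC-2036 replicate 3 apart was not tested.

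**Figure D4:**
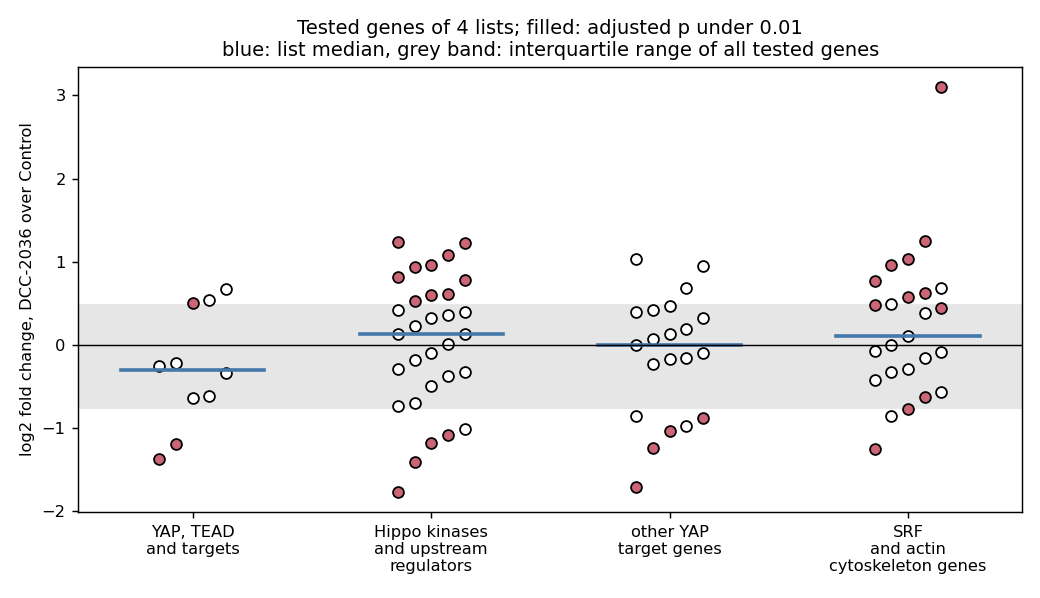
Log2 fold change (vertical axis) of the tested genes of 4 lists, 1 point per gene, filled where the adjusted p was under 0.01, with the list median in blue and the interquartile range of all tested genes in grey. Of the other YAP target genes the 4 filled points are all below 0, and the Hippo list has 10 filled points above and 4 below 0.

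CYR61 and CTGF also belong to the CCN family of matricellular proteins, which has 4 other genes. Only NOV (CCN3) was tested, at 47.2, 28.7 and 36.8 in Control, against 51.9, 41.4 and 67.4 in DCC-2036, with overlap and no call. WISP1, WISP2 and WISP3 were under 10 throughout.

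CYR61 and CTGF respond to serum response factor and to actin tension as well as to YAP, so 25 genes of that group were counted. All were tested, and 9 were called higher (36%, against 19.2% of all genes) and 3 lower (12%, against 22.7%). The median log2 fold change was 0.10 beside -0.09 for all genes, and 19 had no overlap (76%, against 71.1%). SRF itself was called higher at 0.45 and its coactivator gene MKL2 lower at -1.25. CNN1, a calponin gene counted among the 9, entered the test only through its DCC-2036 libraries and so had to differ. Its signal was 1.86, 4.51 and 0.866 in Control, against 18.8, 20.7 and 42.5 in DCC-2036. TAGLN2 was higher at 1.25, CNN3 at 1.03 and TPM1 at 0.97, while VCL, the vinculin gene, was lower at -0.63. ACTG1 was lower at -0.77 and ACTB, its near-identical paralog, was not called at 0.49, and both are uncertain because their reads could be split. With columns scaled to equal totals 5 were called higher and 5 lower, where 13.1% and 27.0% of all genes were. Leaving out Control replicate 1, 2 or 3 or DCC-2036 replicate 2 or 3 lowered the 9 called higher to 3, 4, 3, 3 and 6, where 8.41%, 7.97%, 7.89%, 7.39% and 19.8% of all genes were. The 3 called lower became 5 without DCC-2036 replicate 1, where 28.0% of all genes were.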

How the data were processed

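RNA-seq of 6 LoVo libraries was analysed from the table the authors deposited, which holds a normalized signal per RefSeq transcript and library. The aligner, counter and genome build are not given in the sources used here. Values were not whole and followed no fixed step per library, so reads were not recovered. Columns with the authors' log2 fold change, p-value and q-value were not used. Samples were grouped by title. The transcript with the highest mean was kept per symbol, and symbols reaching a signal of 10 in 3 or more libraries entered the test on log2(signal + 1) with limma 3.58.1 in R 4.3.3, without covariates, with Benjamini-Hochberg adjustment and a limit of 0.01. Ratios of genes, 5 in all, were computed and, unless their separation followed from the values of the genes, compared by two-sided exact permutation tests in scipy 1.17.1 (Python 3.11.15, numpy 2.4.6, pandas 2.3.3, matplotlib 3.10.9). The code was tested on simulated data. All 10 genes are named, and list genes are named by the size of called changes and then by signal, with others chosen after their values were seen. The members and lists were chosen with earlier results of these data known, so lists were counted and not tested. Alternatives were 3 scalings, 2 filters, a replicate block, a limma trend, a pseudocount of 0.1, omission of each library in turn and all transcripts tested separately.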

Additional observations from a re-analysis of the deposited data

How the results depend on the processing

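No log2 fold change of the 10 genes changed sign under the 15 alternatives. The cause of the changes below was not tested. Fits without a library also have fewer samples, and separate transcripts add tests. With columns scaled to equal totals, 1669 genes were called higher and 3440 lower, which were 13.1% and 27.0% of all genes. Under that scaling 0 members were called higher, and 5 SRF and actin genes were called higher and 5 lower. Median of ratios gave 1 other YAP target called higher, where 21.4% of all genes were. A signal of at least 10 in every library also gave 1, where 20.9% of all genes were. Without a filter, 0 members and 5 SRF and actin genes were called higher, where 10.5% of all genes were. With a limma trend, 3 other YAP targets were called higher, where 22.6% of all genes were. Under that trend 6 SRF and actin genes were called lower, where 26.0% of all genes were. With transcripts tested separately, 6379 were called higher and 7250 lower.

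Leaving out each library gave 928 to 2675 genes called higher and 1514 to 3507 lower. These were 7.39% to 21.3% and 12.1% to 28.0% of all genes. Under these omissions 0 to 2 members were called higher, and 4 to 11 Hippo regulators higher and 3 to 6 lower. Other YAP targets gave 0 to 3 higher and 2 to 6 lower, and SRF and actin genes 3 to 10 higher and 2 to 5 lower.

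With a replicate block, 1202 genes were called higher and 1909 lower, which were 9.45% and 15.0% of all genes. Of the lists, 0 members, 4 Hippo regulators and 4 SRF and actin genes were called higher under the block. Called lower were 2 other YAP targets and 2 SRF and actin genes. YAP1 lost its call with the block (adjusted p 0.0268, limma). Deviations of same-numbered Control and DCC-2036 libraries correlated at 0.081, -0.0352 and -0.0033. Values this small do not settle whether equal numbers mark paired cultures, which the labels do not say. Not every library correlated best with its own number. Read depth is unknown, so counting error could not be separated from other spread.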
